A study of Mus musculus with 4 samples.

Results

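The 81 cytosolic ribosomal protein genes counted in mouse testis sections are described here, 49 of the large (60S) subunit and 32 of the small (40S) subunit, out of 28595 genes in the table. They were chosen by name and annotation: every protein-coding gene whose whole symbol is Rpl or Rps with a number and optional letters, Rplp0 to Rplp2, or Rpsa. On the X chromosome lie 4 members (Rpl10, Rpl39, Rpl36a and Rps4x), and the set takes in Rpl10l and Rpl39l, autosomal copies of X-linked genes, and Rps27rt, a copy of Rps27 with 1 exon. The rule leaves out genes of other names that encode ribosomal proteins, such as Rack1.

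The assay was photo-isolation chemistry, in which light releases a blocking group from DNA primers so that only RNA copied in the lit area of a 10 µm section enters the library. H3t is a histone H3 variant of the testis, and mice in which it was deleted were compared with wild-type mice. The groups were H3t KO entire sections, wild-type entire sections, H3t KO sections lit only at Leydig cells, and wild-type sections lit only at Leydig cells, with 3 libraries each. Leydig cells are the androgen-making cells between the seminiferous tubules, and the study asked how their transcripts differ in a testis whose spermatogenesis is disrupted. The word young stands in the titles of wild-type samples only. Nothing in the labels tells whether the libraries of a group come from separate animals, so p-values cover only the spread between these libraries. Each group was 1 pool of barcoded libraries, so pool and group cannot be told apart.

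Ribosomal proteins are made in nearly every cell, and a ribosome is built from a full set of them. Their messages begin with a run of pyrimidines (the 5′ terminal oligopyrimidine tract), through which growth signalling by mTOR sets how actively they are translated. In male germ cells the X chromosome is silenced during meiosis, and mammals carry autosomal copies of a few X-linked ribosomal protein genes that are read in spermatocytes and spermatids. Rpl10l, without which mouse spermatocytes arrest, and Rpl39l, found in the ribosomes of mouse spermatids, are the best known of these.

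Entire-section libraries held 247539 to 566527 counts and Leydig-targeted libraries 5947 to 54882. Wild-type Leydig-targeted replicate 3, with 5947 counts, stood apart from the others: its scaling factor was 2.28, and only 67 of its counts fell on the 81 genes. A level of 3 counts, taken as the limit that 0 counts allow, is 504 CPM (counts per 1000000 counts of the library) there and at most 197 CPM in any other library. The targeted gene, listed as H3f4, had a single count, in replicate 1 of the wild-type entire sections, which is too few to check a label. The 16 spermatocyte and spermatid markers together took 0.0166% to 0.0976% of counts in KO entire sections, against 3.24% to 5.95% in wild-type ones. In Leydig-targeted libraries they took 0.00658% to 0.0176% in KO and 1.88% to 3.31% in wild type, with 10 of the 16 at 0 in KO, among them Ldhc, Tnp1 and Tssk1. Leydig markers took 1.61% to 2.16% in KO entire sections and 0.200% to 0.420% in wild-type ones, against 3.35% to 4.05% and 0.841% to 1.46% in the Leydig-targeted libraries of KO and wild type. In sections, fewer cells of a type and less RNA per cell cannot be told apart. Below, "at Leydig cells" names the area that was lit and not Leydig cells alone. Wild-type Leydig-targeted libraries held 2.49% spermatocyte and spermatid marker counts and 1.05% Leydig marker counts on average, so levels there are of mixed material.

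The 30 bases from 21 to 50 after the annotated transcription start are shown for the X-linked members and their autosomal copies, because the largest opposite differences lie between these genes. Sequences are from RefSeq (GRCm38.p6), each written 5′ to 3′ on the gene's own strand, with the longest run of C or T in capitals. They lie at chrX:74270836-74270865 (plus strand) for Rpl10, chr12:66284352-66284381 (minus) for Rpl10l, chrX:37085173-37085202 (minus) for Rpl39, chr16:10170248-10170277 (plus) for Rpl39l, chrX:134585674-134585703 (plus) for Rpl36a, chr12:69184018-69184047 (minus) for Rpl36al and chrX:102189342-102189371 (minus) for Rps4x.
Rpl10: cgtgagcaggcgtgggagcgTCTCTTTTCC
Rpl10l: acggctgaggTTCCTgctgtcgccatgggt
Rpl39: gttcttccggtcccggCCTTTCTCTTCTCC
Rpl39l: TCTTTTaactgccgagcctgcagcagcgtg
Rpl36a: gctctagCCTCTCTCTTTCCgagctgctag
Rpl36al: tctgttcgTCCCTTTCCTgttcggcgcgtg
Rps4x: cgcgcagcctccgaccctaaTTTCTTCgtt

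Within the printed 30 bases the longest run was 10 in Rpl10 and 5 in Rpl10l, 14 in Rpl39 and 6 in Rpl39l. It was 13 in Rpl36a, 10 in Rpl36al and 7 in Rps4x. The runs of Rpl10 and Rpl39 reach the last base shown and may be longer. In the 100 bases around the start Rpl39l had a run of 9. The printed bases begin 21 bases after the annotated start, so these runs are not shown to be the 5′ terminal tract. Of the 62 members with an entry in the promoter table, 64.5% held a C or T run of at least 10 bases on their own strand in the 100 bases around the start, against 18.0% of all 27025 genes listed. CCGGAAG, the core that ETS family factors bind, was present on either strand of the 300 bases (250 before and 50 after the start) in 38.7% of members and 9.12% of all genes. TGACGTCA, the cyclic AMP response element, was present in 8.06% of members and 1.88% of all genes, and 3.23% of members held both. Rpl39 and Rpl39l each held CCGGAAG, and none of the 7 genes shown held TGACGTCA. The match of letters says nothing about whether a factor binds.

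As a set, the ribosomal protein genes took a larger share of the counts in H3t KO than in wild-type libraries, in entire sections and at Leydig cells alike. They took 1.86%, 2.08% and 2.17% of counts in KO entire sections, against 1.48%, 1.50% and 1.51% in wild-type entire sections. Every KO section lay above every wild-type section, with 2.03% ± 0.159 and 1.50% ± 0.0144 (SD, n = 3 each). In Leydig-targeted libraries the share was 1.90%, 1.93% and 1.67% in KO, against 1.25%, 1.36% and 1.13% in wild type, again without overlap, at 1.83% ± 0.141 and 1.25% ± 0.118 (SD, n = 3 each). Large-subunit genes took 1.38% ± 0.0897 in KO sections and 1.04% ± 0.0104 in wild-type sections (SD, n = 3 each). Small-subunit genes took 0.659% ± 0.0794 in KO sections and 0.455% ± 0.0212 in wild-type sections (SD, n = 3 each). At Leydig cells the large-subunit genes took 1.16% to 1.23% in KO and 0.749% to 0.879% in wild type, without overlap. The small-subunit genes took 0.493% to 0.766% in KO and 0.286% to 0.499% in wild type there, and these ranges overlap. No p is given for the shares. Spermatid marker transcripts, which took 4.67% ± 1.36 of wild-type section counts (SD, n = 3), were lower in KO beside this, and their part in the shares was not tested.

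**Figure D1:**
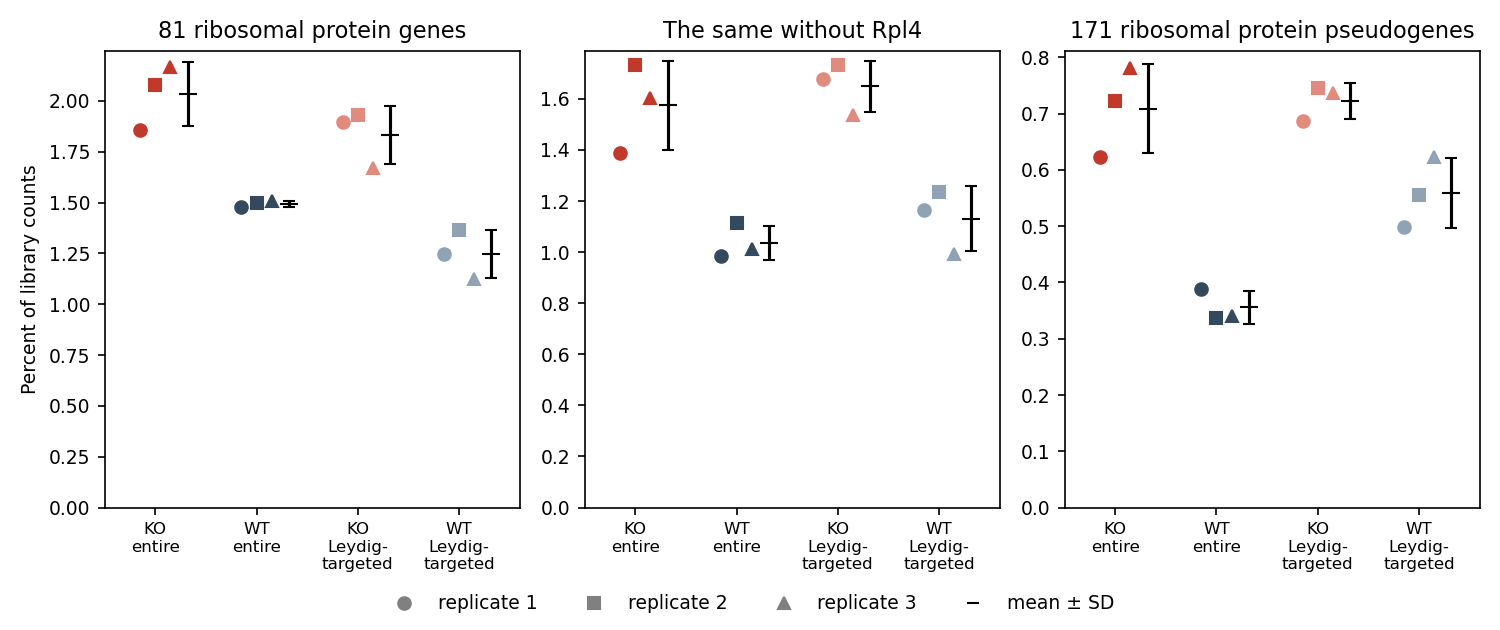
Percent of each library's counts (y axis, from 0) in the 81 ribosomal protein genes, in the same genes without Rpl4, and in 171 ribosomal protein pseudogenes, for the 4 groups of 3 libraries, with mean ± SD beside them. In the first 2 panels every KO library lies above every wild-type library of the same kind of irradiation, and so it does in the third.

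Rpl4, a large-subunit protein that lines the exit tunnel of the ribosome, held more counts than any other member in KO sections, wild-type sections and KO Leydig-targeted libraries, where counts are of transcript 3′ ends and so need no correction for length. It made up 22.5% of the members' counts in KO sections and 30.4% in wild-type sections. At Leydig cells it made up 10.6% in KO and 7.78% in wild type. Without Rpl4 the members' share was 1.58% ± 0.174 in KO sections and 1.04% ± 0.0676 in wild-type sections, and 1.65% ± 0.0995 in KO and 1.13% ± 0.126 in wild-type Leydig-targeted libraries (SD, n = 3 each). Next came Rps20 and Rpl37 in both kinds of entire section, with 6.36% and 5.45% in KO and 12.3% and 4.73% in wild type. At Leydig cells the next were Rpl13 and Rpl37 in KO, with 4.69% and 4.05%, and Rpl13 and Rps20 in wild type, with 7.25% and 5.55%. Rpl13 had a mean of 851 ± 245 CPM in KO and 1245 ± 580 CPM in wild type there (SD, n = 3 each). Its order relative to Rpl4 at 1144 ± 283 CPM in wild type is within their spread. No pseudogene is named after Rpl4, Rps20 or Rpl37. Those of Rpl15 and Rps7 held 1336 and 1470 counts over all libraries, beside 31 and 229 of the members. Ranks among members therefore also depend on how reads were split between members and near-identical copies.

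The members differed widely among themselves in level, counted without the reads assigned to their pseudogenes. The median member had a mean of 116 CPM in KO sections and 57.9 CPM in wild-type sections, and the members ran, from the first to the last quartile, from 33.3 to 286 CPM in KO and from 20.9 to 151 CPM in wild type. At Leydig cells the median was 145 CPM in KO and 73.1 CPM in wild type, and 6 members had no count in each of these groups. Rpl3l, which takes the place of Rpl3 in striated muscle, had 1 count in a wild-type section and none elsewhere. The order of the 81 levels was similar between groups, with a Spearman rho across genes of 0.81 for KO and wild-type sections and 0.73 for KO and wild-type Leydig-targeted libraries. These rank values are across genes that share libraries and are descriptions only.

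**Figure D2:**
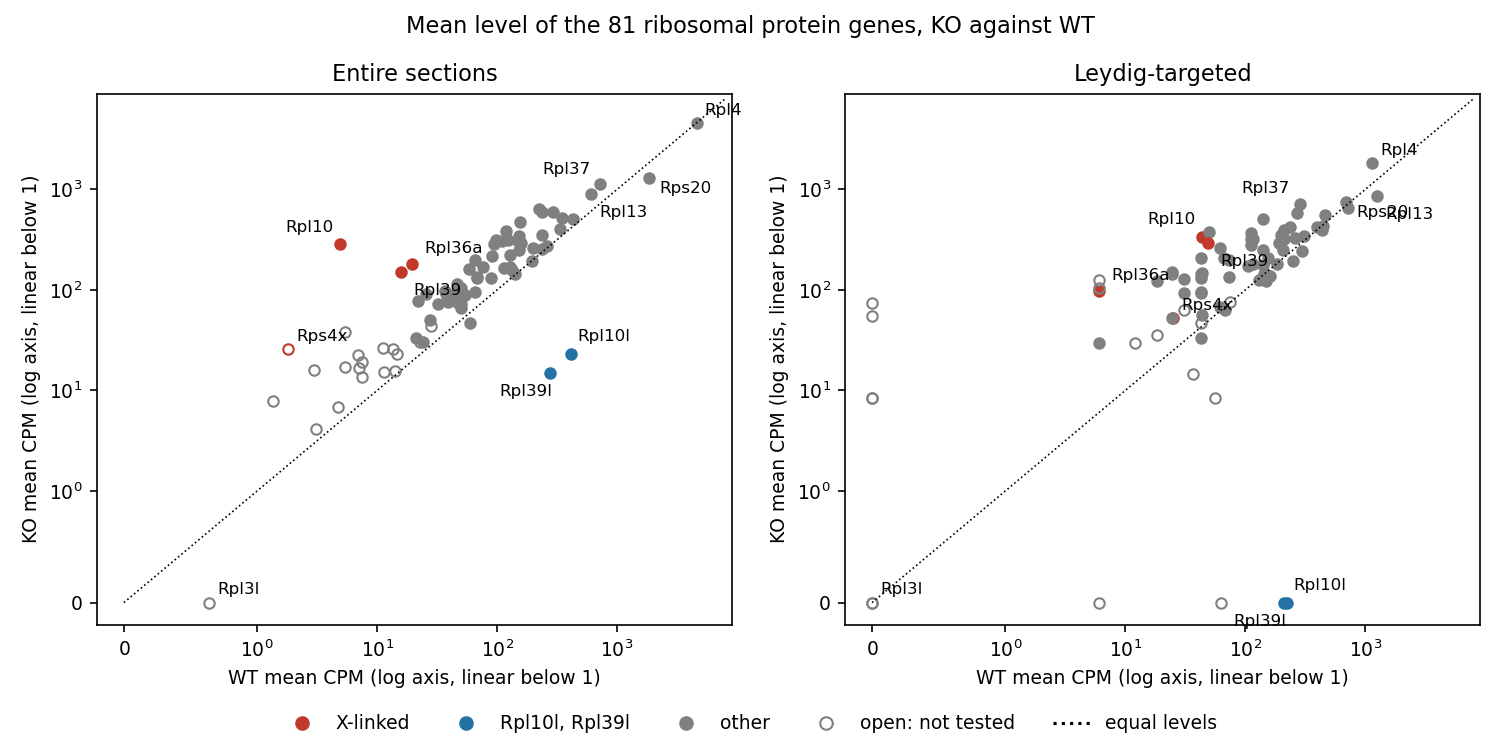
Mean CPM of each of the 81 ribosomal protein genes in KO (y axis) and wild-type libraries (x axis), for both kinds of irradiation (3 libraries a group, log axes that are linear below 1 CPM, dotted line of equal levels). Most points lie above the line in entire sections, with Rpl10 at 286 CPM in KO and 4.90 CPM in wild type farthest above it, and Rpl10l and Rpl39l far below it in both panels.

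In the test of entire sections, KO against wild type, the X-linked Rpl10, Rpl39 and Rpl36a rose, and the autosomal copies Rpl10l and Rpl39l fell. Genes were tested with edgeR's quasi-likelihood test over 5182 genes, of which 62 were members. A filter at about 66.1 CPM kept out the other 19 members, Rps4x and Rpsa among them. A call means an adjusted p (Benjamini-Hochberg) under 0.05, log2 fold changes are KO over wild type after scaling by TMM (trimmed mean of M values), and errors on them are standard errors. In all, 10 members were called higher and 3 lower, which is 16.1% and 4.84% of the 62, where 22.6% of all genes tested were higher and 39.1% lower. The members' median log2 fold change was 0.21, and that of all genes tested was -0.35.

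Rpl10, a large-subunit protein needed to join the subunits, had 219, 298 and 342 CPM in KO sections, against 7.06, 7.65 and 0 CPM in wild-type sections. Every KO section was far above every wild-type section. Its log2 fold change was 4.93 ± 0.61 with adjusted p = 4.145e-15. Its pseudogenes held 370 counts beside 331 of Rpl10 in KO sections and 55 beside 8 in wild-type sections, and with these added to Rpl10 the log2 fold change was 3.18 with edgeR adjusted p = 1.022e-09. Its copy Rpl10l had 12.6, 22.9 and 34.2 CPM in KO sections, against 348, 534 and 356 CPM in wild-type sections, and fell by 4.80 ± 0.54 on the log2 scale with adjusted p = 7.774e-18. The KO sections thus held mostly Rpl10 and the wild-type sections mostly Rpl10l. Of the counts of this pair, Rpl10l held 7.28% (26 of 357, exact 95% interval 4.81% to 10.5%) in KO sections and 98.6% (564 of 572, 97.3% to 99.4%) in wild-type sections. The shares leave out the counts of Rpl10 pseudogenes. Intervals here cover counting error only.

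Rpl39, a very small protein at the exit tunnel, had 153, 191 and 103 CPM in KO sections, against 12.4, 19.1 and 16.2 CPM in wild-type sections. It rose by 2.60 ± 0.51 on the log2 scale with adjusted p = 1.057e-06. Its copy Rpl39l had 16.8, 15.3 and 12.4 CPM in KO sections, against 270, 348 and 206 CPM in wild-type sections, and fell by 4.77 ± 0.55 with adjusted p = 4.104e-17. No KO section overlapped a wild-type one in either gene. Rpl39l held 9.05% of the pair's counts (18 of 199, 5.45% to 13.9%) in KO sections and 94.8% (386 of 407, 92.2% to 96.8%) in wild-type sections. The annotated transcripts of Rpl10l and Rpl10 share no run of identical bases longer than 23, and those of Rpl39l and Rpl39 none longer than 38.

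Rpl36a, also on the X chromosome, had 149, 222 and 177 CPM in KO sections, against 37.1, 13.4 and 8.08 CPM in wild-type sections, and rose by 2.51 ± 0.48 with adjusted p = 7.251e-07. Its autosomal copy Rpl36al was not called: it had 96.7, 105 and 65.3 CPM in KO sections, against 63.5, 61.2 and 36.4 CPM in wild-type sections, with a log2 fold change of 0.09 ± 0.44 and adjusted p = 0.876. Rpl36al overlaps a gene model on its own strand, so its counts are uncertain. It held 33.4% of the pair's counts in KO sections (28.3% to 38.9%) and 72.0% in wild-type sections (62.5% to 80.2%). The other X-linked member, Rps4x of the small subunit, was too low to be tested. It had 11, 9 and 10 counts in KO sections and 2, 1 and 0 in wild-type sections, a summed CPM 11.2 times as high in KO (3.49 to 57.5 by counting error). Rps4l, its autosomal copy, is annotated as a transcribed pseudogene and is not a member. It held 75.2% of the pair's counts (91 of 121) in KO sections and 95.8% (69 of 72) in wild-type sections.

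The direction of the X-linked members was that of most X-linked genes tested. Of 139 X-linked genes, 91 were called higher in KO sections (65.5%) and 13 lower, with a median log2 fold change of 1.37. Of 5028 autosomal genes, 21.4% were called higher, with a median of -0.42. The 3 X-linked members tested were all called higher, and of the 59 autosomal members 7 were higher and 3 lower, with a median of 0.11. Rpl10, Rpl39 and Rpl36a lay under the filter of about 66.1 CPM in every wild-type section and passed it through KO libraries. The filter thus favoured X-linked members that were higher in KO, so 3 of 3 is not read as a result. X-linked members made up 3.16% ± 0.326 of the members' counts in KO sections and 0.282% ± 0.122 in wild-type sections (SD, n = 3 each). Rpl10l and Rpl39l together made up 0.186% ± 0.0284 and 4.59% ± 1.14 (SD, n = 3 each). The 16 spermatocyte and spermatid markers fell beside the 2 copies (15 of 15 tested called lower), and their part in these results was not tested.

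**Figure D3:**
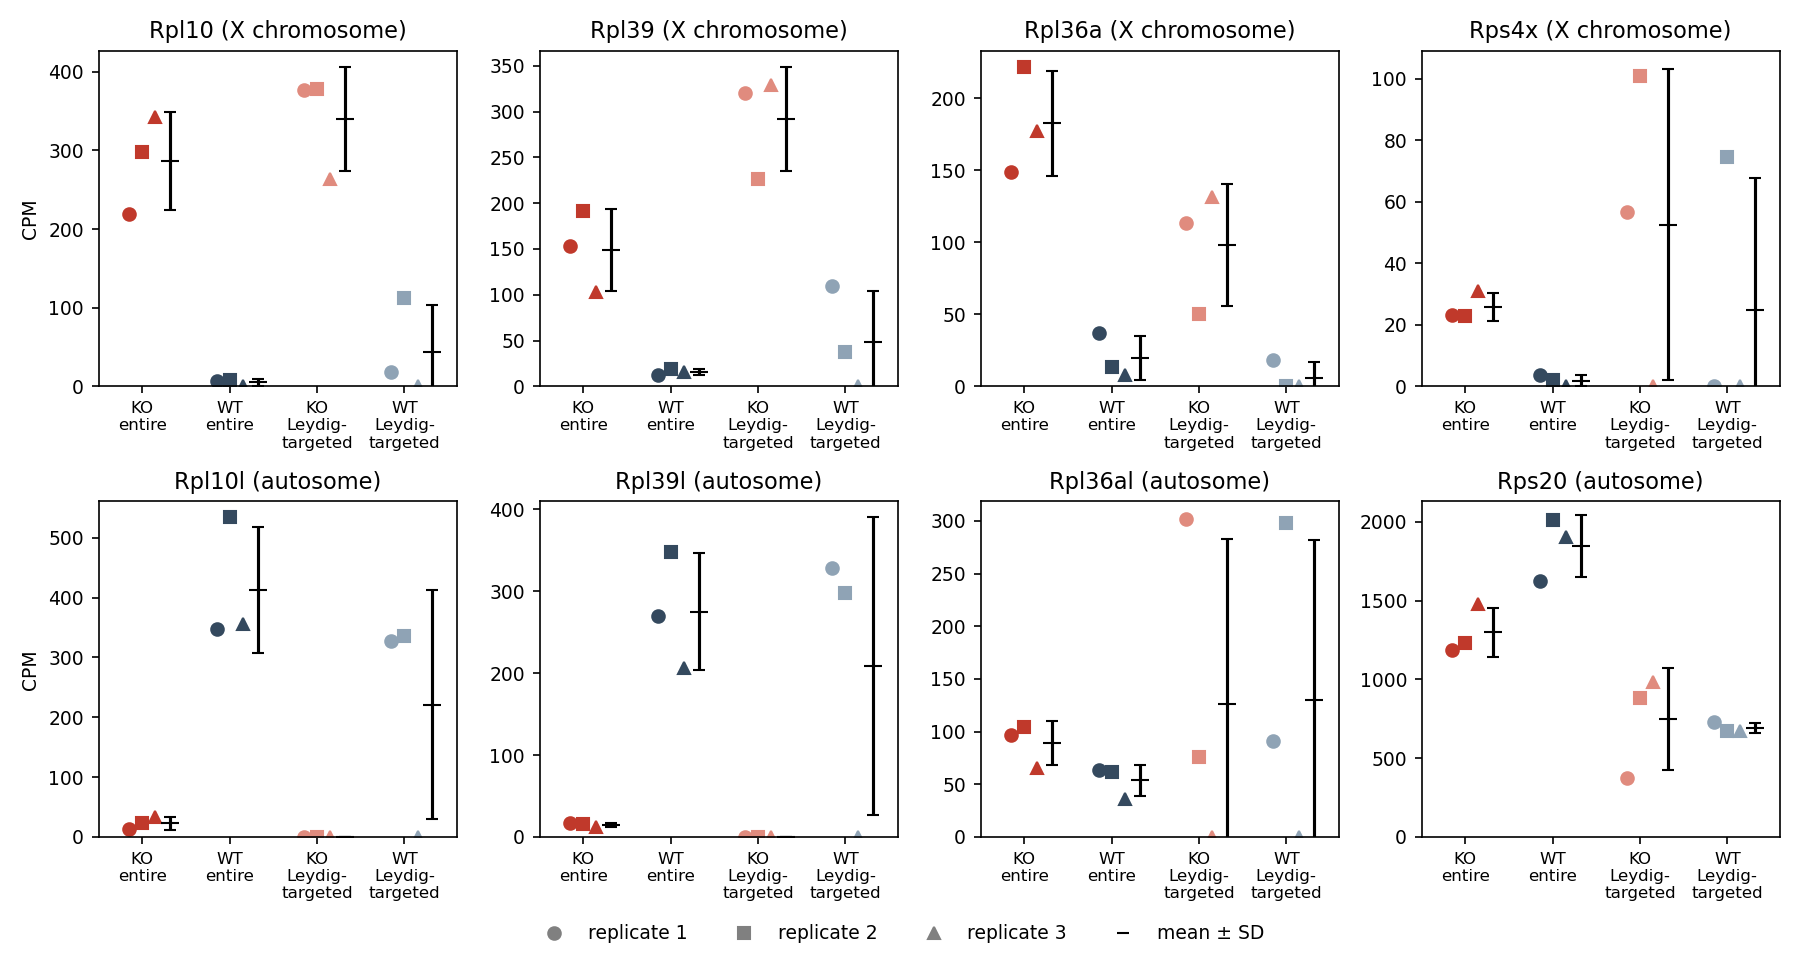
CPM (y axis, from 0) of the 4 X-linked members in the upper row and of 4 autosomal members below, where Rpl10l, Rpl39l and Rpl36al stand under the gene they are a copy of, and Rps20 is shown as another member called lower. Points are the 3 libraries of a group, with mean ± SD beside them. Rpl10 and Rpl39 are high and Rpl10l and Rpl39l low in KO sections, and the reverse holds in wild-type sections.

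Also, 7 autosomal members were called higher in KO sections, each by about 1 on the log2 scale. Rpl6, Rps19, Rpl17, Rpl22, Rps3, Rpl3 and Rplp1 had log2 fold changes from 1.002 to 1.19 and adjusted p from 0.0223 to 0.0432. Rpl6 of the large subunit had 75.7, 66.3 and 90.1 CPM in KO sections and 22.9, 23.0 and 20.2 CPM in wild-type sections. Rps19, which is mutated in Diamond-Blackfan anaemia in humans, had 88.3, 81.6 and 103 CPM in KO and 37.1, 23.0 and 16.2 CPM in wild type. Rpl3, at the peptidyl transferase centre, had 404, 477 and 525 CPM in KO and 178, 130 and 158 CPM in wild type. In each of these the KO sections lay above the wild-type sections. With the replicate number as a block, Rplp1, Rpl3 and Rps3 were not called, with adjusted p = 0.0748, 0.0637 and 0.0535. Without KO entire section replicate 3, Rplp1, Rpl3 and Rpl17 were not called, and without wild-type entire section replicate 3, Rps3 and Rpl22 were not. Rpl17 was not called when counts of its pseudogenes were added to it, at 0.50 with adjusted p = 0.343.

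Rps20, a small-subunit protein, was the other member called lower in KO sections. It had 1185, 1232 and 1479 CPM in KO sections, against 1626, 2011 and 1907 CPM in wild-type sections, without overlap, and a log2 fold change of -1.12 ± 0.46 with adjusted p = 0.025. This call was kept in 8 of 22 alternative fits and lost when any library other than KO entire section replicate 3 or wild-type Leydig-targeted replicate 3 was left out, with adjusted p up to 0.340.

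The acidic stalk proteins recruit elongation factors, and 1 of the 3 was called. Rplp0, the base of the stalk, had 128, 194 and 158 CPM in KO sections and 54.7, 74.6 and 44.4 CPM in wild-type sections, at 0.81 ± 0.45 with adjusted p = 0.106. Rplp1 had 221, 367 and 270 CPM in KO and 95.3, 84.2 and 105 CPM in wild type, at 1.002 ± 0.45 with adjusted p = 0.0432. Rplp2 had 254, 235 and 168 CPM in KO and 81.2, 88.0 and 101 CPM in wild type, at 0.69 ± 0.45 with adjusted p = 0.169. In each of them every KO section lay above every wild-type section in CPM. Rpsa, a small-subunit protein also known as a laminin receptor, had 6, 13 and 7 counts in KO sections and 4, 5 and 1 in wild-type sections and was not tested.

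The share of Rps27l beside Rps27 had intervals that overlapped between the genotypes. Rps27l, induced by p53 in mammals, had 132, 232 and 140 CPM in KO sections and 79.4, 74.6 and 76.8 CPM in wild-type sections, at 0.52 ± 0.45 with adjusted p = 0.309. Rps27 had 71.5, 76.5 and 77.7 CPM in KO and 38.8, 49.7 and 28.3 CPM in wild type, at 0.29 ± 0.46 with adjusted p = 0.594. Rps27l held 69.1% of the counts of both (63.4% to 74.4%) in KO sections and 65.2% (57.2% to 72.6%) in wild-type sections. Rps27rt shares a run of 341 bases with Rps27, so the split between these counts is uncertain.

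Most members were higher in every KO section than in every wild-type section when levels are compared as plain CPM. This held for 52 of the 81, and 3 were lower in every KO section. Of the 62 tested, 44 (71.0%) were higher and 3 (4.84%) lower, where 39.6% of all genes tested were higher and 36.0% lower. Plain CPM and TMM differ here because the TMM factors of wild-type sections were 0.567 to 0.772 and those of KO sections 0.975 to 1.05. Scaled by library size alone, 30 members were called higher and 2 lower, and 1861 genes in all were higher and 1707 lower. The median over all genes tested was then 0.22, and that of the members 0.84. The members' median lay above that of all genes by 0.56 in the TMM fit and by 0.23 to 0.78 over all alternatives.

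The number of members called in entire sections depended on single libraries. Leaving out a library also moved the filter and the calls over all genes. Without KO entire section replicate 3, 4 of 43 members tested were higher, beside 543 of 2292 genes, and without wild-type entire section replicate 3, 5 of 44, beside 593 of 2296. Without KO Leydig-targeted replicate 3, 32 of 69 members were higher, beside 2725 of 8101 genes, and without KO Leydig-targeted replicate 2, 21 of 68, beside 2147 of 8129. Without wild-type Leydig-targeted replicates 3 and 1 the counts were 17 of 71, beside 1924 of 8306 genes, and 16 of 70, beside 1908 of 8160. Leydig-targeted libraries enter this comparison through the shared scaling, filter and spread. Rpl10, Rpl39, Rpl10l and Rpl39l were called in 22 of 22 alternative fits. Rpl36a, Rps19 and Rpl6 were called in 16 of the 16 fits that kept them past the filter. Every fit that left out an entire section dropped Rpl36a, Rps19 and Rpl6 by its filter. How far their calls depend on single sections was therefore not tested.

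**Figure D4:**
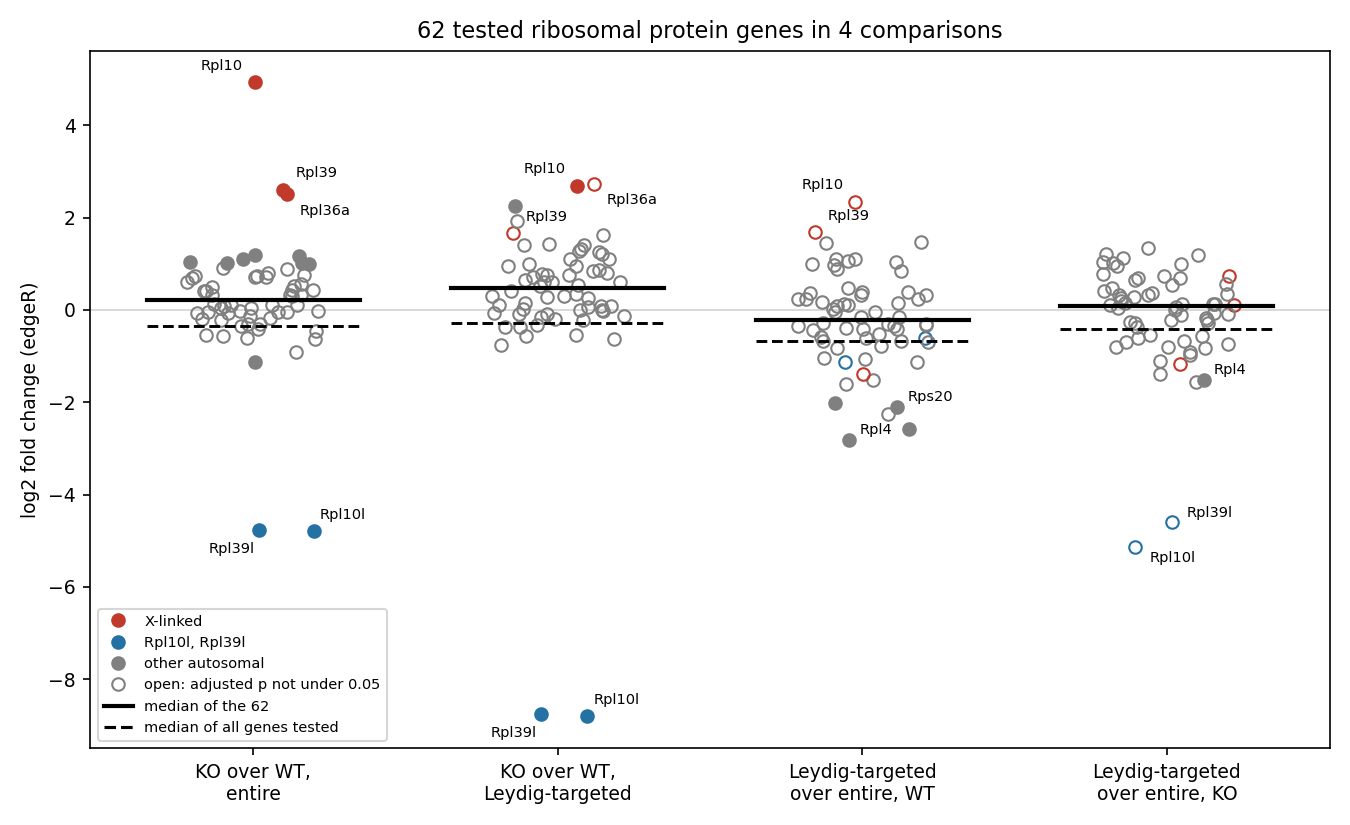
Log2 fold changes (y axis, edgeR) of the 62 tested members in the 4 comparisons, filled where adjusted p is under 0.05, with X-linked members and the copies Rpl10l and Rpl39l in colour, and with the median of the 62 (solid) and of all genes tested (dashed). The solid line lies above the dashed one in each comparison, and the X-linked members and the 2 copies stand apart in entire sections. The copies had no count in KO Leydig-targeted libraries, so their values against that group depend on the prior count.

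At Leydig cells, KO against wild type, Rpl10l and Rpl39l fell and Rpl10 rose, at far lower depth, while Rpl39 and Rpl36a were not called. Here 2 members were called higher and 2 lower, 3.23% each of the 62, where 7.55% of all genes tested were higher and 20.9% lower. Rpl10 had 377, 378 and 263 CPM in KO and 18.2, 112 and 0 CPM in wild type, which rests on 4 wild-type counts in all, and was called at 2.69 ± 0.84 with adjusted p = 0.00906. With its pseudogene counts added (27 in KO and 9 in wild type) it was at 1.78 with edgeR adjusted p = 0.0290. Rpl10l had no count in KO, against 18, 9 and 0 counts in wild type, and was at least 11.1-fold lower in KO. Rpl39l had no count in KO either, against 18, 8 and 0 counts in wild type, and was at least 10.7-fold lower. The Rpl10 call was lost without wild-type entire section replicate 3, KO Leydig-targeted replicate 2 or wild-type Leydig-targeted replicate 1 or 3, with adjusted p up to 0.0842. The adjusted p of Rpl10l and Rpl39l were 3.154e-05 and 3.289e-05. Wild-type replicate 3, where both copies were at 0, lies within the KO libraries, and its limit of 504 CPM is above the 298 to 335 CPM of the other 2.

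Of the counts of the pair, Rpl10l held none of 39 in KO (0% to 9.03%) and 87.1% (27 of 31, 70.2% to 96.4%) in wild type. Rpl39l held none of 31 in KO (0% to 11.2%) and 78.8% (26 of 33, 61.1% to 91.0%) in wild type. Rpl39 had 321, 227 and 329 CPM in KO and 109, 37.2 and 0 CPM in wild type, at 1.66 ± 0.74, and was not called, with adjusted p = 0.080, or 0.0338 without wild-type Leydig-targeted replicate 1. Rpl36a had 6, 2 and 2 counts in KO and 1, 0 and 0 in wild type, a summed CPM 8.13 times as high (1.16 to 353 by counting error), and was not called, with adjusted p = 0.128. Rps4x had 7 counts in KO and 2 in wild type. The spermatid markers, at 10 of 16 with no count in KO, were lower there beside the copies, and their part in this was not tested.

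Rpl5, which carries 5S RNA into the ribosome and binds Mdm2, was the other member called higher. It had 302, 176 and 658 CPM in KO and 36.4, 112 and 0 CPM in wild type, at 2.25 ± 0.84 with adjusted p = 0.0311. The limit for the 0 in wild-type replicate 3 is 504 CPM, above the 302 and 176 CPM of KO, so a lack of overlap is not shown. It was called in 8 of 21 alternative fits, with adjusted p from 0.00901 to 0.202, and lost with any library left out but KO entire section replicate 3 or wild-type Leydig-targeted replicate 2. Rps25, next lowest among the members tested, had 4, 1 and 0 counts in KO and 5, 1 and 0 in wild type, at -0.76 ± 1.05 with adjusted p = 0.632. In plain CPM, 18 of the 81 members were higher in every KO library and none lower. Of the 62 tested, 16 (25.8%) were higher and 0 lower, where 13.5% of all genes tested were higher and 11.2% lower. Wild-type replicate 3 held counts of only 24 members. A gene at 0 there could not be lower in every KO library and was more easily higher, so this split is not read as a result. The members' median was 0.47 and that of all genes -0.28, a difference that ran from -0.48 to 1.13 over the alternatives and so changed sign. The count of 2 higher was 1 without KO entire section replicate 1 or 2, wild-type entire section replicate 1 or 2, or KO Leydig-targeted replicate 1 or 2. In those fits 172 to 338 of all genes tested were higher. No member was called higher without wild-type Leydig-targeted replicate 3 or without wild-type entire section replicate 3, where 140 of 8306 and 118 of 2296 genes were. With only the 2 groups in the fit, 14 members passed the filter and none was called in either direction. Over all 418 genes in that fit, 90 were higher and 83 lower.

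Other members named above had these levels at Leydig cells. Rplp0 had 264, 277 and 0 CPM in KO and 292, 261 and 0 CPM in wild type. Rplp1 had 358, 454 and 460 CPM in KO and 146, 223 and 336 CPM in wild type. The 336 CPM of wild-type replicate 3 is 2 counts, so a lack of overlap is not shown. Rplp2 had 56.6, 504 and 395 CPM in KO and 146, 186 and 0 CPM in wild type. None of these was called, with adjusted p of 0.699, 0.284 and 0.424. Rpl3 had 377, 882 and 263 CPM in KO and 200, 223 and 0 CPM in wild type, at adjusted p = 0.109. Rpl36al had 302, 75.6 and 0 CPM in KO and 91.1, 298 and 0 CPM in wild type, at adjusted p = 0.95. Rps27l had 264, 302 and 526 CPM in KO and 146, 186 and 0 CPM in wild type, at adjusted p = 0.296. Rps27 had 2, 7 and 1 counts in KO and 3, 1 and 0 in wild type, and Rpsa had no count in KO and 1 in wild type.

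Within wild type, Leydig-targeted libraries held less of the members that were highest in entire sections. Here 4 members were called lower and none higher, 6.45% and 0% of the 62, where 12.4% of all genes tested were lower and 3.22% higher. Unadjusted, 10 members had p under 0.05, beside 1536 of all 5182 genes tested. DESeq2 called 2 members higher (Rps29 and Rplp0) and 5 lower, beside 233 and 445 of all genes. Rpl4 had 820, 1266 and 1345 CPM at Leydig cells and 4951, 3874 and 4957 CPM in entire sections, without overlap, and fell by 2.81 ± 0.51 with adjusted p = 6.071e-06. Rpl5 had 36.4, 112 and 0 CPM at Leydig cells and 244, 230 and 230 CPM in sections, at -2.59 ± 0.76 with adjusted p = 0.0098. Rps20 had 729, 670 and 673 CPM at Leydig cells and 1626, 2011 and 1907 CPM in sections, at -2.10 ± 0.51 with adjusted p = 0.00136. Rpl37, of the large subunit, had 328, 186 and 336 CPM at Leydig cells and 658, 710 and 804 CPM in sections, at -2.01 ± 0.57 with adjusted p = 0.00682. All of these had lower CPM in every Leydig-targeted library. For Rpl5 the limit for the 0 in replicate 3 is 504 CPM, above its sections, so that library shows no fall. Rpl4 was called in 22 of 22 alternative fits, Rps20 in 21, Rpl37 in 17 and Rpl5 in 16. Rpl5 was lost without any 1 wild-type entire section or wild-type Leydig-targeted replicate 3, and Rpl37 without KO entire section replicate 1 or wild-type entire section replicate 2 or 3. The count of 4 lower was 2 of 44 without wild-type entire section replicate 2 or 3, beside 186 of 2261 and 127 of 2296 genes. It was 7 of 71 without KO Leydig-targeted replicate 1, beside 1220 of 8224 genes. Without wild-type Leydig-targeted replicate 1 it was 8 of 70, beside 1059 of 8160 genes.

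Rps14, a small-subunit protein near the platform, had 1 count at Leydig cells in wild type and 52 in sections, a summed CPM 3.41 times as low (0.586 to 137 by counting error), and was not called, with adjusted p = 0.232. The highest log2 fold changes were those of Rpl10 (2.34 ± 1.19), Rpl39 (1.69 ± 0.87) and Rps18 of the 40S head (1.47 ± 0.82), none of them called, with adjusted p = 0.166, 0.172 and 0.208. They rest on 4, 7 and 8 counts at Leydig cells. Rpl39 was at -0.34 without wild-type Leydig-targeted replicate 1. Rpl10l and Rpl39l were not called, at -1.14 ± 0.53 and -0.60 ± 0.53. Spermatocyte and spermatid markers took 2.49% ± 0.734 of counts at Leydig cells and 4.67% ± 1.36 in sections (SD, n = 3 each), and their part in the levels of the copies was not tested. The members' median of -0.21 was above that of all genes at -0.67, and it was 0.39 with scaling by library size alone, where that of all genes was -0.09.

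Within KO, 1 member was called lower at Leydig cells than in entire sections and none higher, where 3.53% of all genes tested were lower and 1.91% higher. Unadjusted, 6 members had p under 0.05, beside 1057 of all 5182 genes tested. DESeq2 called 1 member higher (Rps28) and 1 lower, beside 180 and 165 of all genes. Rpl4 had 2170, 1991 and 1315 CPM at Leydig cells and 4691, 3453 and 5644 CPM in sections, without overlap, at -1.53 ± 0.47 with adjusted p = 0.031. Rps28 had 302, 151 and 132 CPM at Leydig cells and 84.1, 66.3 and 68.4 CPM in sections, at 1.34 ± 0.55 with adjusted p = 0.120. Rpl35a had 94.3, 202 and 329 CPM at Leydig cells and 67.3, 89.2 and 43.5 CPM in sections, at 1.19 ± 0.59 with adjusted p = 0.229. Rps28 and Rpl35a did not overlap between the groups in CPM, where the 132 CPM of Rps28 rests on 2 counts. Rpl10l and Rpl39l had no count at Leydig cells and 26 and 18 in sections, which is under the limit that 0 counts allow there. Rps14 had 4 counts at Leydig cells and 113 in sections, at adjusted p = 0.260. Rpl4 was not called without KO entire section replicate 3, without KO Leydig-targeted replicates 1 or 2, or without wild-type Leydig-targeted replicate 2. Between 0 and 7 members were called lower when 1 library was left out. Without wild-type Leydig-targeted replicate 3, 7 of 71 were lower, beside 880 of 8306 genes. Without KO Leydig-targeted replicate 3, 4 of 69 were lower, beside 460 of 8101 genes. Without wild-type or KO entire section replicate 2 or wild-type entire section replicate 1, 2 of 44 were lower, beside 195 to 223 genes.

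No member was called for a difference between the genotypes in how Leydig-targeted libraries compared with entire sections. Among all genes tested, 0.193% were called higher and 0.135% lower in this interaction. Just 1 member had an unadjusted p under 0.05, Rpl5 at 2.72 ± 0.95 with adjusted p = 0.171 in edgeR, and DESeq2 called it with adjusted p = 0.0487. Among all 5182 genes, 530 had an unadjusted p under 0.05, and DESeq2 called 50 higher and 22 lower. Next were Rpl4 at 1.29 ± 0.67 with adjusted p = 0.499 and Rpl10 at -2.24 ± 1.26 with adjusted p = 0.539.

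The 19 members that were not tested were summed, since each was too low alone. They held 334, 428 and 339 CPM in KO sections, against 177, 180 and 154 CPM in wild-type sections, without overlap. At Leydig cells they held 698, 1058 and 789 CPM in KO and 419, 447 and 336 CPM in wild type. These levels rest on 37, 42 and 12 counts in KO and 23, 12 and 2 in wild type. With 2 counts in wild-type replicate 3, a lack of overlap is not shown there. These sums carry no test.

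Genes with symbols of ribosomal protein pseudogenes, whatever their annotation, took counts beside the members. The table lists 171 by symbol, of which 166 are named after one of 54 members, and 19 of these members held fewer counts than their pseudogenes. The pseudogenes took 0.709% ± 0.0797 of counts in KO sections and 0.356% ± 0.0287 in wild-type sections (SD, n = 3 each). At Leydig cells they took 0.723% ± 0.0317 in KO and 0.559% ± 0.0615 in wild type (SD, n = 3 each). Of 27 tested in entire sections, 8 were called higher in KO and none lower, where 22.6% of all genes tested were higher and 39.1% lower. Rpl10-ps3, on chromosome 9 and annotated as protein-coding, held 370 counts in KO sections and 54 in wild-type sections. It rose by 2.44 on the log2 scale with edgeR adjusted p = 1.301e-06. Rpl36a-ps2, on chromosome 3, held 124 counts in KO sections and 22 in wild-type sections and rose by 2.06 with edgeR adjusted p = 0.000155. Reads of a pseudogene and its parent can be assigned to either, so the split between them is uncertain. With pseudogene counts added to each parent, 13 of 72 members tested were called higher and 3 lower in entire sections. Over all 5165 genes in that fit, 1169 were higher and 2021 lower.

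Other genes of translation were called in both directions in entire sections, where 22.6% of all genes tested were higher and 39.1% lower. Against that background the counts of the lists that follow are descriptions, and nothing particular to translation genes is read from them. Of 17 tested elongation factors and other genes with a terminal pyrimidine tract, 3 were higher in KO and 6 lower. Pabpc1, the poly(A) binding protein, fell by 3.25 ± 0.50 with adjusted p = 3.139e-10, and Vim, an intermediate filament gene of mesenchymal cells, rose by 2.20 ± 0.47 with adjusted p = 1.245e-05. Of 21 initiation factors, 1 was higher and 7 lower: Eif4a1, an RNA helicase, rose by 1.89 ± 0.56 with adjusted p = 0.00182, and Eif4e, the cap binding protein, fell by 2.58 ± 0.46 with adjusted p = 1.194e-07. Of 11 ribosome biogenesis genes none was higher and 4 were lower, among them Polr1c, a subunit of RNA polymerases I and III, which fell by 1.76 ± 0.45 with adjusted p = 0.000215. Of 7 genes of mTOR signalling and translation control, 2 were higher and 1 lower: Ddit4, an inhibitor of mTOR, rose by 1.58 ± 0.50 with adjusted p = 0.00382, and Larp1, which binds terminal pyrimidine tracts, fell by 1.54 ± 0.45 with adjusted p = 0.00144. Rack1, a 40S protein outside the symbol rule, rose by 1.24 ± 0.45 with adjusted p = 0.0111. Of 19 tested mitochondrial ribosomal protein genes, 3 were higher and 3 lower. Of other germ cell copies, Pabpc2 fell by 7.84 ± 0.70 and Pabpc6 fell by 6.69 ± 0.68. Leydig, Sertoli and macrophage markers rose in the same sections, 9 of 9, 9 of 9 and 8 of 8 tested, and the part of these cells in the members' levels was not tested.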

How the data were processed

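The deposited table holds raw whole-number counts per gene for 12 libraries. The submitters' processing notes name the GRCm38 genome with HISAT2, featureCounts, UMI-tools and Trim Galore, without versions or a strand setting. Per the labels' protocols, libraries followed the photo-isolation chemistry protocol. Reads of a gene, its overlapping neighbours (25 members have one) and its near-identical copies may be split wrongly between them. CPM is counts per 1000000 counts of the library. Counts were tested with edgeR 4.0.16 in R 4.3.3 (robust quasi-likelihood, TMM, 1 coefficient per group over all 12 libraries, filter with a minimum count of 10), with Benjamini-Hochberg adjustment over 5182 genes. DESeq2 1.42.0, library size scaling, no filter, fits on the 2 groups compared, a replicate block, leaving out each library, and others were alternatives. Of these, 4, with library sizes of the tested genes, TMMwsp scaling, pseudogene counts added to parents, and both Leydig-targeted libraries numbered 3 left out, were added after seeing the data.

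Same-numbered KO and wild-type entire sections deviated together from their group means (correlations across genes of 0.243, 0.132 and 0.194). The main fit had no replicate block, so its calls and p-values are unpaired. Only the alternative with a replicate block took the numbers as pairs. Same-numbered Leydig-targeted libraries did not (-0.004, 0.008 and -0.006). Intervals are exact (Clopper-Pearson) at 95% and cover counting error only, and a fold against 0 counts uses a limit of 3 counts over the group. Members named are, per comparison, the 3 highest and 3 lowest log2 fold changes and all called, the members with most counts, and the copies with their parents. A result that this rule would name is not reported here. The members and lists were chosen with earlier results of these data known. Positions are those of GENCODE vM21, which held all 81 members, and 62 members had an entry in RefSeq's promoter table. Scripts were tested on simulated data.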

Additional observations from a re-analysis of the deposited data

Results flagged for a closer look

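Rpl10a, a large-subunit member too low to be tested, was above entire sections in every KO Leydig-targeted library and had no count in any wild-type one. It had 56.6, 101 and 65.8 CPM at Leydig cells and 16.8, 28.0 and 12.4 CPM in entire sections of KO, from 8 and 23 counts. In wild type it had 0 counts at Leydig cells, against 8.83, 5.74 and 8.08 CPM in sections. The limits that 0 counts allow in those wild-type libraries are 54.7, 112 and 504 CPM. All lie above the wild-type sections, so no fall is shown in wild type. Over all libraries the 2 pseudogenes named after Rpl10a held 377 counts beside its own 41, so its counts are uncertain. With the 0 counts taken as a level of 0, the difference between the genotypes of KO minus wild type, at Leydig cells minus entire sections, was 62.8 CPM in the group means, and this difference was not tested.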

How the results depend on the processing

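The Rpl10, Rpl39, Rpl10l and Rpl39l differences in entire sections and the fall of both copies at Leydig cells kept their direction and calls in every alternative run that could test them. Counts of members called did not. In brackets stand the genes called the same way over all genes tested, out of 5182 unless another total is given. For KO against wild type in entire sections, the main count of 10 higher (1170) was 30 with library size alone (1861). It was 27 in the fit on the 2 groups compared (2390 of 7907), 16 with library sizes of the tested genes (1425) and 19 with TMMwsp (1519). Without both Leydig-targeted libraries numbered 3 it was 23 (2318 of 9144). With 1 library left out it was 4 to 32 (543 to 2725, out of 2261 to 8306). The 3 lower (2024) became 4 with DESeq2 (2131) and 2 to 3 in the other alternatives (752 of 2261 to 4639 of 26389). For the same comparison in Leydig-targeted libraries, 2 higher (391) became 5 with library size alone (560) and 0 in the 2-group fit (90 of 418). The count higher was 1 with library sizes of the tested genes (192) or TMMwsp (318), and 0 to 3 with 1 library left out (118 to 433). The 2 lower (1085) became 0 in the 2-group fit (83 of 418) and stayed at 2 with 1 library left out (317 to 1809). For Leydig-targeted against entire section in wild type, 0 higher (167) became 3 with library size alone (320) or the 2-group fit (173 of 3330). It became 2 with DESeq2 (233), and 1 with library sizes of the tested genes (215), TMMwsp (199) or added pseudogene counts (168 of 5165). Without both libraries numbered 3 it was 1 (267 of 9144), and with 1 library left out 0 to 2 (105 to 273). Higher calls there came without KO entire section replicates 1, 2 or 3, wild-type entire section replicate 2, or replicate 3 of either Leydig-targeted group. The 4 lower (642) became 2 with library size alone (241), 7 with no filter (1443 of 26389) and 1 in the 2-group fit (173 of 3330). With 1 library left out they were 2 to 8 (127 to 1220). In KO, 0 higher (99) became 2 with library size alone (195) or added pseudogene counts (100 of 5165). It became 1 with DESeq2 (180) and 3 in the 2-group fit (229 of 3894). The 1 lower (183) became 3 with library sizes of the tested genes (482) and 4 without both libraries numbered 3 (431 of 9144). With 1 library left out it was 0 to 7 (50 to 880). The interaction gave 1 higher with DESeq2 (50) and 0 with 1 library left out (0 to 23 higher and 4 to 110 lower). The cause of these moves was not tested; the filter kept 418 genes in the Leydig-targeted 2-group fit and 2261 to 8306 with 1 library left out.

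With the replicate block, 7 members were higher and 3 lower in entire sections, beside 1117 and 1989 of all genes tested. The block changed no count of members in the other comparisons, where the numbers did not pair the libraries. Reversals of sign were Rpl35a in KO at -0.0149 with added pseudogene counts, and, both without wild-type Leydig-targeted replicate 1, Rps25 in KO against wild type at Leydig cells (-1.76 to 1.13 with 1 library left out) and Rpl39 at Leydig cells against sections in wild type (-0.34 to 2.39). With pseudogenes the share of counts was 2.74% in KO and 1.85% in wild-type sections, and 2.56% in KO and 1.80% in wild-type Leydig-targeted libraries, and without mitochondrially encoded genes it was 1.56% in wild-type sections. With 1 library left out it was 1.97% to 2.12% and 1.49% to 1.50% in KO and wild-type sections, and 1.78% to 1.91% and 1.19% to 1.31% in KO and wild-type Leydig-targeted libraries. The share of Rpl39l in its pair in wild-type Leydig-targeted libraries, which also held germ cell transcripts, was 75.0% to 88.9%. Depth limits the Leydig-targeted comparisons: the highest limit for 0 counts there was 504 CPM.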
